A study of Mus musculus with 10 samples.

Results

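Ribosomal proteins of the cytosol are the protein parts of the ribosome that translates messenger RNA outside the mitochondria, and their genes were followed in AtT20/D16v-F2 cells, a mouse pituitary tumour line that makes the hormone precursor POMC. The members were all genes of the count table with a symbol of the form *Rpl* or *Rps* plus digits and an optional letter, l or x, together with *Rplp0*, *Rplp1*, *Rplp2* and *Rpsa*, without -ps pseudogenes and *Rps6k* kinases. The rule gave 84 genes of the 53801 in the table, of which 52 belonged to the large (60S) and 32 to the small (40S) subunit. Of these, 78 had counts high enough to be tested. Libraries of poly(A) RNA came from control cells that stably expressed a non-targeting shRNA (n = 5) and from knockdown cells that stably expressed *Creb3l1* shRNA (n = 5), both made with lentivirus. *Creb3l1* encodes a transcription factor that is held in the membrane of the endoplasmic reticulum until it is cleaved. Each condition was 1 transduced line, so that the shRNA target and the line cannot be told apart, and the study's methods call replicates biological for its experiments in general. The labels do not say whether the samples of a line were grown as separate cultures, so that p-values measure only the spread between these samples, which may be technical.

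The libraries held 17420698 to 22205107 counts. Normalised counts below are counts divided by library size after TMM scaling, which sets the bulk of genes equal between libraries. *Creb3l1* itself was at 3689 ± 148 (SD, n = 5) in the control and 1090 ± 59.2 (SD, n = 5) in the knockdown cells, a log2 fold change of -1.76. The corticotroph markers *Pomc*, *Tbx19*, *Pcsk1*, *Neurod1* and *Pitx1* had means of 892 to 131411 normalised counts in the control line, and *Crhr1* was low, at 29.2. Markers of other pituitary hormone cells (*Gh*, *Prl*, *Tshb*, *Lhb* and *Fshb*) were at 0 or below 2 normalised counts in every library. One library stood apart: in non-targeting replicate 3 the gene *Gm42418* took 4.13% of all counts, against 0.106% to 0.191% in the other 9.

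The cytosolic ribosome is built in the nucleolus from ribosomal RNA and ribosomal proteins, most of which are present once per ribosome, and their mRNAs are among the most abundant of any dividing cell. Most of these mRNAs start with a cytosine followed by a run of pyrimidines, the 5′ terminal oligopyrimidine (TOP) tract, through which TOR signalling and the protein LARP1 control their translation and storage. Free RPL5 and RPL11, bound to 5S ribosomal RNA, also bind and inhibit MDM2, the main inhibitor of p53.

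The sequence at the start of the gene is the feature that these genes are best known to share, so the windows of a few members are shown first. These were picked with their fold changes known and cannot show a relation between sequence and fold change. Long pyrimidine runs also lay in members with small changes, such as *Rpl15* (17 bases, log2 fold change -0.09) and *Rplp2* (9 bases, -0.07). Windows came from RefSeq on GRCm38.p6, with 30 bases before and 20 bases after the annotated start, and 62 of the 84 members matched a window. Capitals mark the longest stretch of pyrimidines read onward from a C within 5 bases of the start, whatever base comes before it. The first 4 are members with long runs that fell in the knockdown line, and they lie at chr7:45718041-45718090 (plus strand), chr17:33955646-33955695 (minus), chr2:39005112-39005161 (minus) and chr7:109519165-109519214 (plus).
Rpl18: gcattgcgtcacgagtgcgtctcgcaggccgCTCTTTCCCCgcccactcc
Rps18: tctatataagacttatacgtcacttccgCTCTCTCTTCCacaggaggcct
Rpl35: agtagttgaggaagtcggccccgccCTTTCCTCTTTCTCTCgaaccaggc
Rpl27a: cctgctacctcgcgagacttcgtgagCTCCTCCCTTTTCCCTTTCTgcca
The next 3 are a member of the same kind with a small decrease, the member with the largest increase and its partner in the 5S particle, at chr4:86857348-86857397 (minus), chr5:107900498-107900547 (plus) and chr4:136053374-136053423 (minus).
Rps6: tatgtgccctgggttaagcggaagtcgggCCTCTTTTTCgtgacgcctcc
Rpl5: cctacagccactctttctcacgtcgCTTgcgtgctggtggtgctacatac
Rpl11: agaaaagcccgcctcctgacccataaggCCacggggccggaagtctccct

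A run of at least 5 pyrimidines at the start was found in 27 of the 62 member windows (43.55%), against 18.3% of all 27025 RefSeq windows of the same 300-base length (250 bases before and 50 after the start). Annotated starts can miss the true first base. Counting began at a C within 5 bases of the start, so pyrimidines before that C were left out. Runs that began further upstream and reached the start were thus counted in part, as for *Rpl35*. A run without a C in that stretch was not counted. Of the 26 tested members with a run, 22 fell in the knockdown cells at an adjusted p under 0.01 (edgeR) and none rose, where 20.1% of all 14336 genes tested fell, and their median log2 fold change was -0.15. Of the 32 tested members with a window but no such run, 24 fell and 1 rose, with a median of -0.13. In a second fit, with offsets that even out how each library depends on GC content and on transcript length, 6 of the 26 fell and 1 rose (median -0.02), and 10 of the 32 fell and 2 rose (median -0.03), where 20.2% of all genes fell. The order of the medians thus turned with the offsets, and no test was made between these kinds of member.

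Words bound by transcription factors were searched on both strands of the 300-base windows. The ETS word CCGGAAGT lay in 11 member windows (17.74%, against 4.03% of all windows) and the YY1 word ATGGCGG in 9 (14.52%, against 4.19%). The CRE word TGACGT, the core of the cAMP response element that CREB factors bind, lay in 12 member windows (19.35%, against 7.57%). The G-box word GACGTG, which CREB3 family factors bind, lay in 5 member windows (8.065%, against 6.22%), and the E-box CACGTG in 5 (8.065%, against 7.21%). TGACGT and GACGTG overlap in the longer word TGACGTG. These are matches of letters and do not show that a factor was bound.

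Windows around the G-box are printed for all 5 members that held it, because *Creb3l1* was the gene knocked down. Capitals mark the word as it reads on the strand of the gene, so that CACGTC is GACGTG on the opposite strand. They lie at chr14:18271209-18271236 (minus), chr9:64173224-64173253 (plus), chr5:107900504-107900533 (plus), chr7:28350626-28350655 (plus) and chr9:44407608-44407637 (plus).
Rpl15: ccggccccttGACGTGacgtaagcaaac
Rpl4: ataattttaacaCACGTCacgcaataatat
Rpl5: gccactctttctCACGTCgcttgcgtgctg
Rps16: cgccgcaattcaCACGTCccctctcaggct
Rps25: gagtttagccaaGACGTGgctccacccatt
Of these 5 genes, *Rpl5* rose and the other 4 fell, by 0.09 for *Rpl15*, 0.10 for *Rpl4*, 0.13 for *Rps16* and 0.10 for *Rps25* on the log2 scale. *Rpl15* was called in 5 of 17 alternatives without offsets, and lost its call with DESeq2, with library totals, with scaling from genes outside the members, without a filter and in 8 of the 10 fits that omitted 1 library (all but control replicate 1 and knockdown replicate 2). With the offsets *Rpl15* was at 0.04, *Rps16* at -0.05 and *Rps25* at -0.01, none of them called, while *Rpl5* and *Rpl4* kept their calls. Members with a G-box had a median log2 fold change of -0.10, and the 53 tested members with a window and no G-box one of -0.14. All 12 members with the CRE word were tested, and 11 fell, with a median of -0.13, or 5 with the offsets, with a median of -0.05. Of the 46 tested members with a window and no CRE word, 35 fell, with a median of -0.13. With the offsets 11 of the 46 fell, with a median of -0.03. Of all genes 20.1% fell, or 20.2% with the offsets.

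Ribosomal protein genes were lower in the knockdown cells as a group, by a small amount each. Of the 78 tested, 61 were called lower at an adjusted p under 0.01 (edgeR), 2 were called higher and 15 were not called. In bulk RNA, a lower share of cells with an mRNA and less of it per cell cannot be told apart. Among all 14336 genes tested, 20.1% were called lower and 20.6% higher. The median log2 fold change of the members was -0.13, so that a typical member fell by 8.81%, and that of all genes was -0.0025. The middle quartiles of the members ran from -0.18 to -0.10. In 74 of the 78 the estimate was below 0. In 54 members every knockdown library lay below every control library, which held for 17.8% of all genes. No member reached a change of 1.5-fold. The standard errors were small, with a median of 0.027 on the log2 scale, and the 5 libraries of a line typically differed by a coefficient of variation of 3.32% in the control and 3.02% in the knockdown line.

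**Figure D1:**
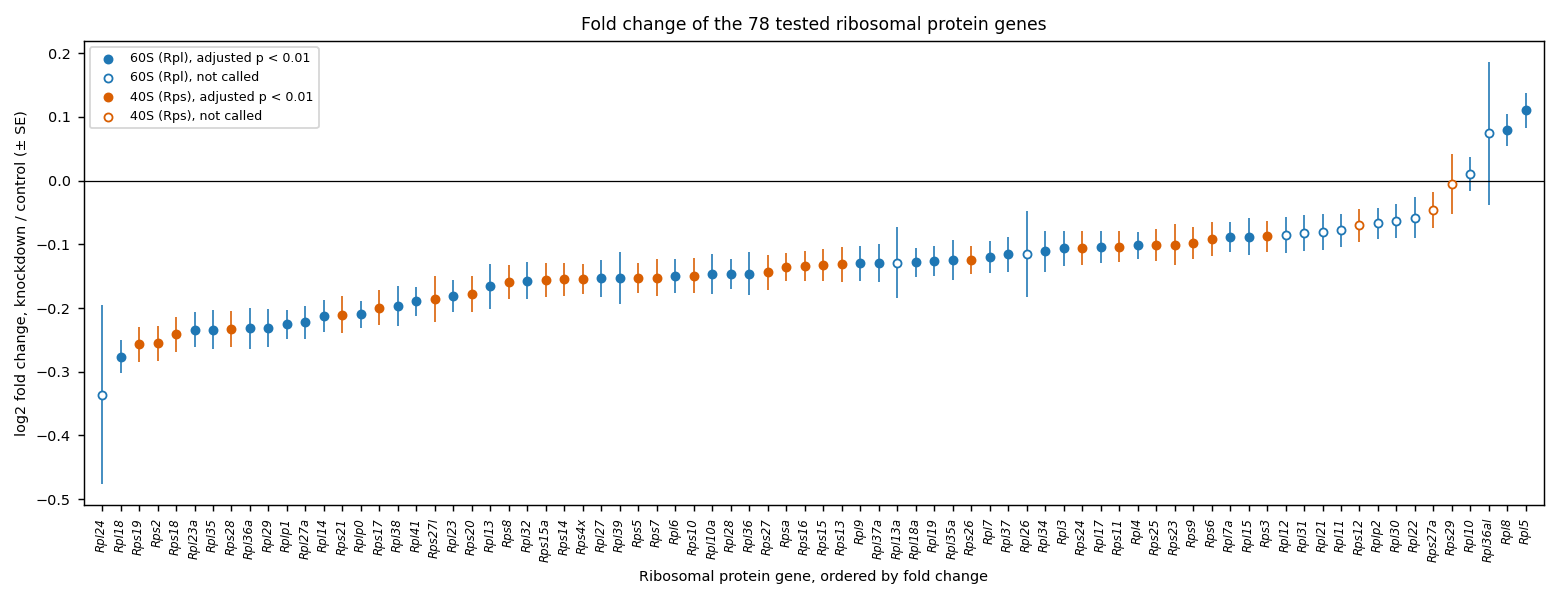
Log2 fold change (knockdown over control) with its standard error for each of the 78 tested ribosomal protein genes, in order of size, with blue for 60S and orange for 40S genes and filled points for an adjusted p under 0.01. All but 4 points lie below 0, and the filled points run from -0.28 (*Rpl18*) to 0.11 (*Rpl5*).

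The decrease was seen in both subunits. Of 47 tested 60S genes, 33 fell and 2 rose, with a median log2 fold change of -0.13. Of 31 tested 40S genes, 28 fell and none rose, with a median of -0.14. With the offsets 13 of the 47 60S genes fell and 4 rose (median -0.02), and 9 of the 31 40S genes fell (median -0.03). Of all genes 20.1% fell, or 20.2% with the offsets. Together the members took 2.71%, 2.70%, 2.58%, 2.86% and 2.74% of the counts of the 5 control libraries, and 2.43%, 2.52%, 2.49%, 2.57% and 2.48% of the 5 knockdown libraries. The lowest control value was that of replicate 3, the library rich in *Gm42418*, and it became 2.69% when that gene was left out of its total. The ratio of 60S to 40S counts was 1.493 ± 0.00659 (SD, n = 5) in the control and 1.496 ± 0.00841 (SD, n = 5) in the knockdown line, and the ranges of 1.484 to 1.501 and 1.485 to 1.506 overlapped. Control replicate 4 was the library with the most member counts, with members at a median of 0.06 log2 units above the mean of the control line. Without it, 55 members were called lower, with a median of -0.13, and without replicate 3, 63 were called lower, with a median of -0.14.

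Short transcripts in general were lower in the knockdown cells, and ribosomal protein mRNAs are short. The transcripts of the tested members had a median length of 680.5 bases, against 2616 for all genes. Among the genes that were not members, the median log2 fold change was -0.12 for transcripts under 500 bases, -0.09 from 500 to below 1000 bases, -0.04 from 1000 to below 2000 bases and 0.07 from 5000 bases on. In the first 3 of these classes the members had medians of -0.15 (18 genes), -0.13 (43 genes) and -0.13 (15 genes). The members of 1000 to below 2000 bases thus lay further below the other genes of their length than the shortest members did.

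**Figure D2:**
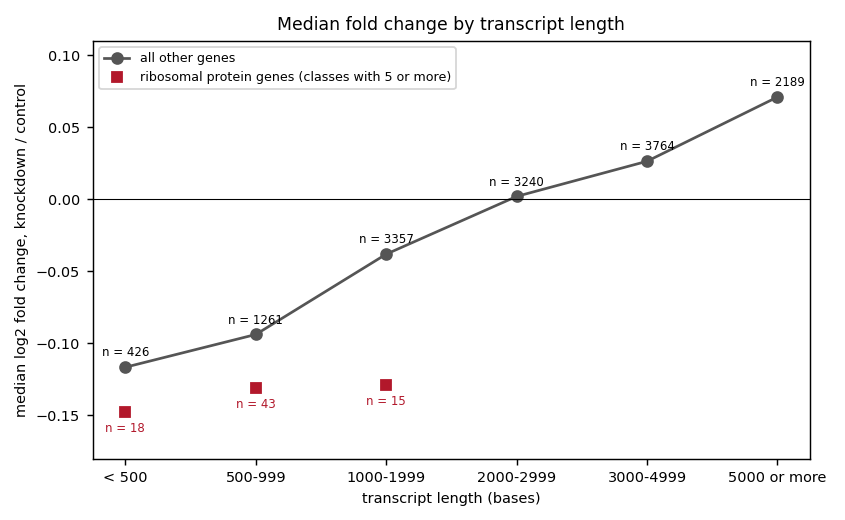
Median log2 fold change (knockdown over control) by transcript length in bases, with grey circles for all other genes, red squares for ribosomal protein genes and the number of genes beside each point. The grey line climbs from -0.12 in the shortest to 0.07 in the longest class, while the red squares stay between -0.15 and -0.13.

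Calls were also set beside those of other short genes. Of the 61 tested members with a transcript under 1000 bases, 47 were called lower, against 22.0% of the 1687 other genes of that length. Those with at least 1000 normalised counts were 58 members, of which 47 (81.03%) were called lower, against 43.4% of 290 other genes. In these classes the median fold changes were -0.15 for the members and -0.08 for the others, but the members were the more deeply counted, with a median of 5160 normalised counts against 2072, and shorter, with 613 bases against 765.5. With the offsets 12 of the 58 members and 67 of the 290 other genes were called lower, with medians of -0.02 and 0.04.

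Most of the shift was removed by the offsets. With them 22 members were called lower and 4 higher, against 20.2% and 23.1% of all genes, and the median of the members was -0.03. All 22 had also been called lower without offsets, and 39 others lost the call. Offsets estimated on the genes outside the members also gave 22 and 4. With length alone 16 were lower and 3 higher, and with GC content alone 54 were lower and 1 higher. Whether the relation with length arose in the cells or in the making of the libraries was not tested. Across the 78 members themselves the fold change had little relation to length (Spearman's rho 0.11) or GC content (-0.26), with all points drawn from the same 10 libraries.

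**Figure D3:**
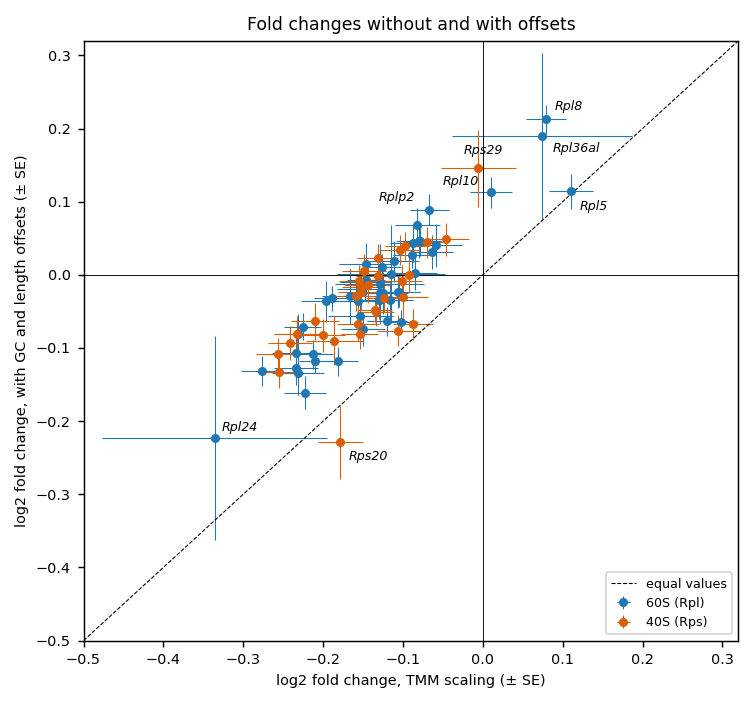
Log2 fold change of each tested ribosomal protein gene with TMM scaling (x axis) and with GC and length offsets (y axis), each with its standard error, with blue for 60S and orange for 40S genes and a dashed line for equal values. Nearly all points lie above the dashed line and the cloud is centred near 0 on the y axis, while *Rpl5* keeps 0.11 on both axes and *Rpl8* moves from 0.08 to 0.21.

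The 6 largest decreases among well counted members were those of *Rpl18*, *Rps19*, *Rps2*, *Rps18*, *Rpl23a* and *Rpl35*, and all 6 were also called lower with the offsets. *Rpl18*, a 60S gene on chromosome 7 (45715457 to 45720836, GRCm38), had 8076, 8565, 8306, 8905 and 8414 normalised counts in the control libraries and 6855, 7229, 6977, 7085 and 6755 in the knockdown libraries. Every knockdown value lay below every control value. The log2 fold change was -0.28 ± 0.026 (SE, adjusted p = 7.7e-12, edgeR), so that the gene fell by 17.4%, and it was -0.13 with the offsets.

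*Rps19*, a 40S gene that is the one most often mutated in Diamond-Blackfan anaemia, had 4985, 4947, 4993, 5332 and 5095 normalised counts in the control and 4130, 4282, 4349, 4353 and 4110 in the knockdown libraries. The lines did not overlap, and the log2 fold change was -0.26 ± 0.027 (SE, adjusted p = 2.0e-10, edgeR). With the offsets it was -0.11. *Rps2*, of the mRNA entry side of the 40S subunit, had 7845, 7745, 7872, 8118 and 7449 in the control and 6310, 6816, 6608, 6719 and 6244 in the knockdown libraries. These values too were apart, with a log2 fold change of -0.26 ± 0.027 (SE, adjusted p = 1.7e-10, edgeR). *Rps18*, of the head of the 40S subunit, had 4939, 4965, 5066, 5328 and 5021 against 4287, 4135, 4296, 4415 and 4284 normalised counts. Its knockdown values were all lower than the lowest control value, and its log2 fold change was -0.24 ± 0.027 (SE, adjusted p = 6.6e-10, edgeR).

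*Rpl23a* and *Rpl35* encode neighbours at the exit of the tunnel through which the new peptide leaves the 60S subunit. *Rpl23a* was at 7122 ± 286 (SD, n = 5) normalised counts in the control and 6055 ± 167 (SD, n = 5) in the knockdown line, with a log2 fold change of -0.23 (adjusted p = 2.0e-09, edgeR). *Rpl35* was at 3670 ± 181 (SD, n = 5) and 3122 ± 99.3 (SD, n = 5), also with a log2 fold change of -0.23 (adjusted p = 2.9e-08, edgeR). Neither gene had overlapping values between the lines. In the annotation, genes of the opposite strand covered 59.7% of the exons of *Rpl23a* and 66.2% of those of *Rpl35*. Windows of read length found in no other gene's transcripts made up 18.3% of *Rpl23a* and 64.5% of *Rpl35*. The strand setting of the counting is not given in the sources used here, so the counts need not be those of these mRNAs alone. Whether this affected the fold changes was not tested.

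The stalk of the 60S subunit, which recruits the elongation factors, is made of RPLP0 and dimers of RPLP1 and RPLP2. *Rplp0* had 31116, 30952, 31332, 32016 and 31366 normalised counts in the control libraries and 26427, 27828, 26866, 28217 and 26211 in the knockdown libraries. The values of the lines were far apart for the spread within each, and the log2 fold change was -0.21 ± 0.021 (SE, adjusted p = 2.9e-11, edgeR). *Rplp1* had 10370, 10693, 10316, 10948 and 10426 in the control and 8742, 9037, 9112, 9179 and 9051 in the knockdown libraries, again without overlap. Its log2 fold change was -0.23 ± 0.023 (SE, adjusted p = 6.0e-11, edgeR). *Rplp2* had 9044, 8819, 8522, 8853 and 8515 in the control and 7971, 8442, 8381, 8562 and 8405 in the knockdown libraries. The highest knockdown value of *Rplp2* exceeded the lowest control values, and its log2 fold change of -0.07 ± 0.025 (SE) was not called (adjusted p = 0.020, edgeR), although it was called lower without control replicate 3 (-0.08).

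The stalk partners were therefore compared within each library, a comparison chosen after the values were seen. The p-values given for it do not allow for that choice, so they add no support to the difference. The ratio of *Rplp1* to *Rplp2* counts was 1.15, 1.21, 1.21, 1.24 and 1.22 in the control and 1.10, 1.07, 1.09, 1.07 and 1.08 in the knockdown libraries. All knockdown ratios were lower, lower by a difference of -0.16 on the log2 scale (exact permutation test on both sides, n = 5 per line, p = 0.0079, the smallest that 5 against 5 allow, and 0.0079 after adjustment over the 2 ratios computed). A ratio within a library does not depend on how the library was scaled, but the offsets still move the genes unequally, to -0.07 for *Rplp1* and to 0.09 for *Rplp2*.

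*Rpl5* and *Rpl8* were the members that rose. *Rpl5*, on chromosome 5 (107900502 to 107909005, GRCm38), had 5880, 5497, 5873, 5944 and 5788 normalised counts in the control and 6164, 6080, 6074, 6622 and 6337 in the knockdown libraries. Every knockdown value was above every control value. The log2 fold change was 0.11 ± 0.028 (SE), an increase of 7.93% (adjusted p = 0.00094, edgeR), it was called whichever library was left out, and it was 0.11 with the offsets too. Its transcript of 2045 bases was long for a member. In the annotation, genes of the opposite strand covered 24.3% of the exons of *Rpl5*. Windows of read length found in no other gene's transcripts made up 52.1% of it. The strand setting of the counting is not given in the sources used here, so the counts need not be those of this mRNA alone. Whether this affected the fold change was not tested.

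*Rpl8*, a 60S protein near the peptidyl transferase centre, had 8710, 8869, 8879, 9401 and 8756 normalised counts in the control and 9033, 9685, 9568, 9661 and 9178 in the knockdown libraries. Control replicate 4 lay among the knockdown values, so that the lines overlapped. The log2 fold change was 0.08 ± 0.025 (SE, adjusted p = 0.0080, edgeR), close to the threshold, and the call was lost with DESeq2 (adjusted p = 0.011) and without any 1 of control replicates 1, 2, 3 and 5 or knockdown replicates 2, 3 and 4. With the offsets it was 0.21 and called.

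*Rpl11* encodes the partner of RPL5 in the 5S particle. It had 7205, 7070, 7168, 7721 and 7222 normalised counts in the control and 6756, 6895, 6874, 7130 and 6816 in the knockdown libraries. Only knockdown replicate 4 reached into the control range. Its log2 fold change of -0.08 ± 0.026 (SE) was just not called (adjusted p = 0.011, edgeR), it was called with DESeq2 (adjusted p = 0.0080), with RLE scaling, with at least 10 counts in every library, and without control replicate 2 or 3 or knockdown replicate 4, and it was 0.05 and not called with the offsets.

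The ratio of *Rpl5* to *Rpl11* counts was 0.82, 0.78, 0.82, 0.77 and 0.80 in the control libraries and 0.91, 0.88, 0.88, 0.93 and 0.93 in the knockdown libraries. The ratio was higher in all 5 knockdown libraries, by 0.19 on the log2 scale (exact permutation test on both sides, n = 5 per line, p = 0.0079, the smallest possible, and 0.0079 after adjustment over the 2 ratios). The pair was chosen for this comparison after the values were seen. The p-values do not allow for that choice, so they add no support to the difference. With the offsets the fold changes of both were positive, at 0.11 and 0.05.

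**Figure D4:**
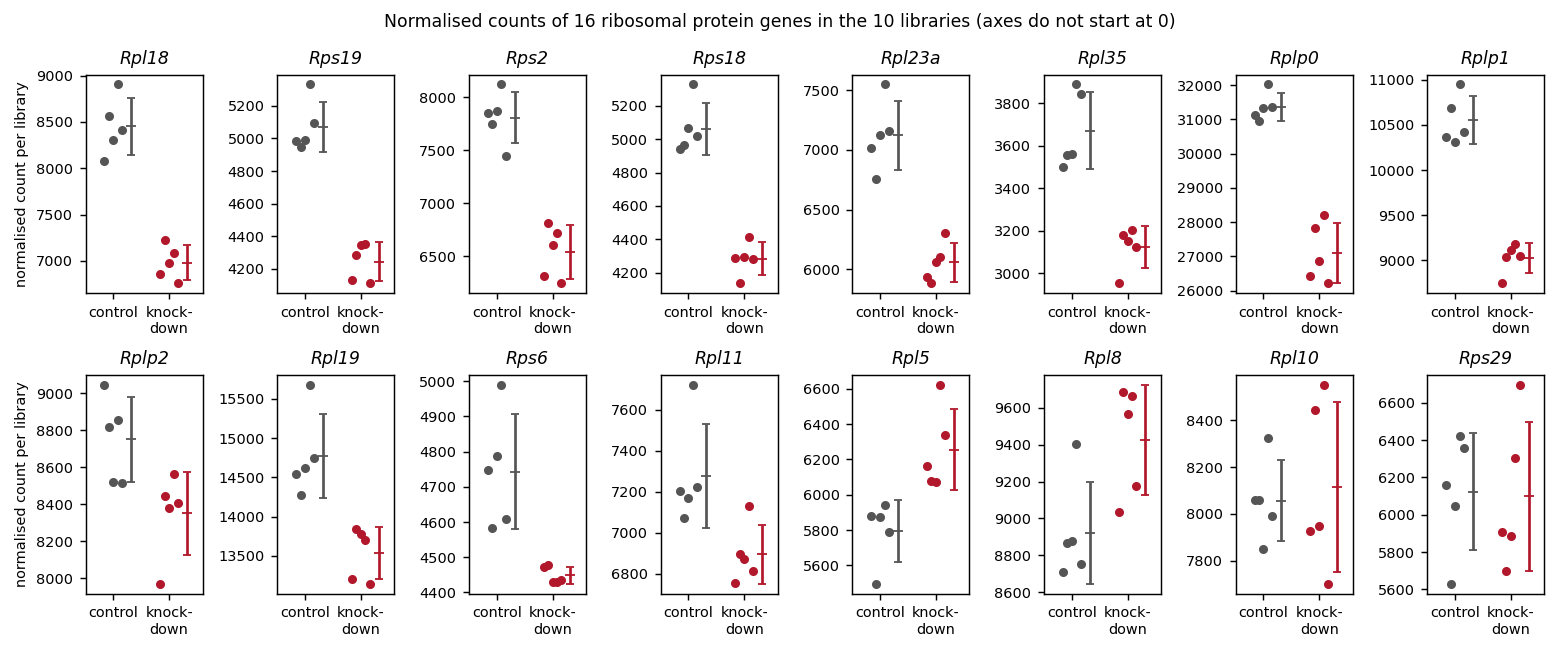
Normalised counts in each library for 16 ribosomal protein genes, with grey points for control and red points for knockdown libraries, and the mean with its SD beside them. The axes differ between panels and do not start at 0. The lines are apart for *Rpl18* to *Rplp1* and, in the opposite direction, for *Rpl5*, and overlap for *Rplp2*, *Rpl11*, *Rpl8*, *Rpl10* and *Rps29*.

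Several members are used as reference genes or as readouts of growth signalling. *Rpl19* had 14538, 14271, 14624, 15680 and 14753 normalised counts in the control and 13211, 13846, 13776, 13697 and 13145 in the knockdown libraries. All knockdown values were below the control values, by 0.13 on the log2 scale (SE 0.023, adjusted p = 1.7e-05, edgeR). With the offsets the estimate was 0.01 and was not called. *Rps6*, whose protein is phosphorylated by S6 kinase, was at 4743 ± 163 (SD, n = 5) and 4449 ± 24.5 (SD, n = 5) normalised counts, with lines that did not overlap. Its log2 fold change of -0.09 (adjusted p = 0.0037, edgeR) was called, and was close to 0 with the offsets. The call was lost with library totals and without control replicate 1 or 4 or knockdown replicate 3 or 5. *Rpsa*, which encodes a 40S protein also known as the laminin receptor, was at 18032 ± 269 (SD, n = 5) and 16420 ± 515 (SD, n = 5), a log2 fold change of -0.14 (adjusted p = 1.7e-06, edgeR), and was not called with the offsets (-0.05).

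Levels of the members were compared per kb of transcript, as normalised counts of the control line divided by transcript length. *Rpl41*, which encodes the smallest ribosomal protein, was the highest, at 44411 ± 1565 (SD, n = 5) normalised counts per kb. *Rplp0* followed with 23090 ± 299, *Rplp1* with 21144 ± 532, *Rps26* with 20812 ± 404 and *Rplp2* with 20786 ± 543 (SD, n = 5 each). *Rplp1*, *Rps26* and *Rplp2* did not differ beyond their spread. The middle quartiles of the tested members ran from 5340 to 11768 per kb. The level depends on the transcript chosen for each gene, and *Rps20*, at 1329 per kb, was divided by an annotated transcript of 3706 bases. The offsets used the same lengths and so depend on this choice too. With them *Rps20* was at -0.23, the lowest of the members, and was called lower. *Rpl41* fell by 0.19, *Rps26* by 0.12 and *Rpl4*, at 31205 normalised counts second only to *Rplp0* among the members, by 0.10 on the log2 scale. With the offsets *Rpl41* and *Rps26* were at -0.03 each and lost their calls, and *Rpl4* was at -0.06 and kept its call.

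**Figure D5:**
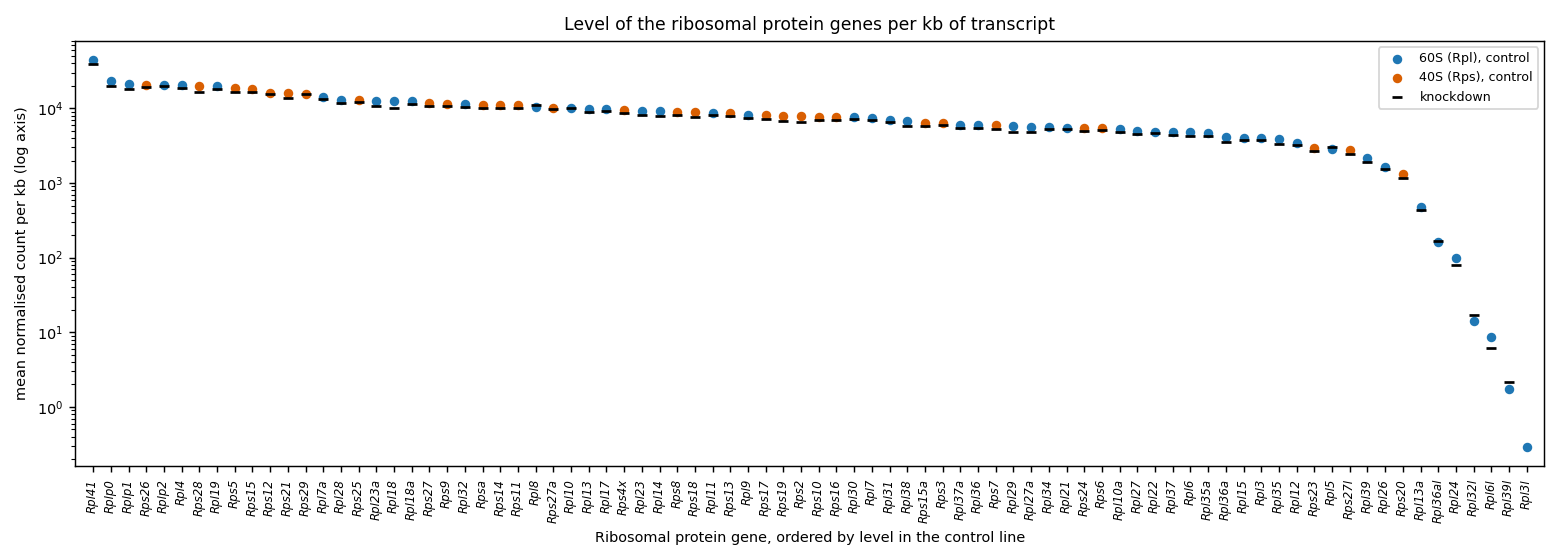
Mean normalised count per kb of transcript (log axis) of each ribosomal protein gene that was counted in the control line, in order of level, with blue for 60S and orange for 40S genes in the control line and black bars for the knockdown line. The tested genes lie between 1329 (*Rps20*) and 44411 (*Rpl41*), except *Rpl13a*, *Rpl36al* and *Rpl24*, which lie below them with the untested genes.

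The 15 members that were not called included 11 with at least 1000 normalised counts. *Rps29* had 6159, 5630, 6046, 6424 and 6355 normalised counts in the control and 5906, 5698, 5885, 6306 and 6697 in the knockdown libraries, and was chosen for display after its values were seen. The lines overlapped throughout, with a log2 fold change of -0.01 ± 0.047 (SE). *Rpl10*, of the subunit interface, had 8061, 8060, 7850, 8323 and 7991 against 7927, 8444, 7949, 8552 and 7701, also with full overlap. Its log2 fold change was 0.01 ± 0.027 (SE, adjusted p = 0.78, edgeR), it turned negative without control replicate 3 or knockdown replicate 2 or 4, and with the offsets it was called higher (0.11), as was *Rplp2*.

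A few members were counted at far lower levels than the rest. *Rpl24* had a mean of only 61.0 normalised counts over the 10 libraries, with a log2 fold change of -0.34 ± 0.141 (SE) that was not called (adjusted p = 0.044, edgeR). Another gene of the same strand covered 47.0% of its exons in the annotation, and 19.1% of its 75-base windows were not shared with transcripts of other genes. *Rpl13a* was at 499 ± 28.6 (SD, n = 5) normalised counts in the control line, and 35.4% of its exons were covered in the same way. Whether reads in such overlaps were counted is not given in the sources used here, so these levels need not be those of the mRNAs. Both genes, outside the rule for naming, were chosen after their values were seen.

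Ribosomal protein genes have many processed copies in the genome, which share sequence with them. Across the tested members, the share of 75-base windows found in no other gene's transcripts ran from 1.48% (*Rps27*) to 100%, with a median of 51.5%. The 13 tested members with at least 80% unique windows had a median log2 fold change of -0.13, with 11 lower and 1 higher. The 23 with under 30% had one of -0.14, with 18 lower. With the offsets 4 of the 13 and 6 of the 23 were lower, with medians of -0.06 and -0.01. Of 285 annotated -ps pseudogenes 43 could be tested, 2 fell and none rose, with a median of -0.13. These 43 were thinly counted, with a median of 32.3 normalised counts. With the offsets their median was -0.01 and none was called. Of all genes 20.1% fell, or 20.2% with the offsets.

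Paralogues with l or x symbols were mostly silent or weak in these cells. *Rpl10l* and *Rps4l* had 0 counts in every library, so that up to 3 counts per library cannot be told from none (counting error only). *Rpl3l* had 0 or 1 count and *Rpl39l* 0 to 3 counts per library. *Rpl32l* had 2 to 9 counts and *Rpl6l* 2 to 13, and these, like *Rps4l*, are annotated as pseudogenes. Their partners were all abundant, and *Rpl3*, *Rpl39*, *Rpl32* and *Rpl6* fell by 0.11, 0.15, 0.16 and 0.15 on the log2 scale, *Rps4x* by 0.15. *Rpl3* lost the call with library totals and without knockdown replicate 5 (-0.08). *Rpl39* lost it without control replicate 5 or knockdown replicate 3 (-0.13 each). With the offsets *Rpl3* (-0.02), *Rpl39* (-0.06) and *Rpl32* (-0.04) were not called, and *Rpl6* (-0.07) and *Rps4x* (-0.08) were.

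Among the members, *Rps27* with *Rps27l* and *Rpl36a* with *Rpl36al* were the pairs of which both genes were tested. *Rps27* was at 11821 ± 371 and *Rps27l*, a p53 target in mouse and human cells, at 2752 ± 99.9 normalised counts per kb in the control line (SD, n = 5). Both fell, by 0.14 and 0.19 on the log2 scale (adjusted p = 3.2e-05 and 3.0e-05, edgeR), and neither was called with the offsets, at -0.01 and -0.09. *Rpl36a* was at 4190 ± 142 and *Rpl36al* at 162 ± 11.9 per kb (SD, n = 5). *Rpl36a* fell by 0.23 (adjusted p = 9.0e-08, edgeR) and by 0.13 with the offsets, while *Rpl36al* had a log2 fold change of 0.07 ± 0.112 (SE), which its few counts leave wide. Other genes covered 24.5% of the exons of *Rpl36al*.

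Ribosomal proteins with other names were also looked at. Of 5 such genes, *Rps3a1*, *Fau*, *Rack1*, *Rpl22l1* and *Rpl7l1*, 2 fell and none rose, with a median log2 fold change of -0.08. Of all genes 20.1% fell and 20.6% rose. *Fau*, which encodes a fusion to RPS30, had 5941, 5945, 6295, 6375 and 6193 normalised counts in the control and 5428, 5693, 5598, 5569 and 5562 in the knockdown libraries. These did not overlap, and the log2 fold change was -0.14 (adjusted p = 1.5e-05, edgeR). *Rack1*, of the 40S head, fell by 0.08 (adjusted p = 0.0039, edgeR) with overlapping lines, and lost the call without any 1 of control replicates 1, 2, 4 and 5 or knockdown replicates 1, 3 and 5. *Rps3a1* was at 4651 ± 144 and 4563 ± 89.0 (SD, n = 5), a log2 fold change of -0.03 that was not called. With the offsets none of the 5 was called.

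Other RNAs of the TOP class had a median close to that of all genes. Of 19 elongation factors and related TOP RNAs 1 fell and 3 rose, with a median log2 fold change of -0.02. Of all genes 20.1% fell and 20.6% rose. The list also held the noncoding RNAs *Gas5*, *Snhg1*, *Snhg5*, *Snhg6* and *Snhg8*, and *Snhg5* was 1 of the 3 that rose. *Eef1a1*, which brings aminoacyl-tRNA to the ribosome, was at 92542 ± 2605 (SD, n = 5) in the control and 95069 ± 3115 (SD, n = 5) in the knockdown line, with a log2 fold change of 0.04 that was not called, except without knockdown replicate 5 (0.06). *Eef2*, the translocase, had 0.05 and *Pabpc1*, which binds poly(A) tails, 0.05, with adjusted p = 0.029 and 0.038 (edgeR). *Eef2* was called without knockdown replicate 5 (0.06) and with the offsets (0.09). *Tpt1* was the one that fell, by 0.12 (adjusted p = 6.8e-05, edgeR), and it was not called with the offsets. The median transcript of this list had 1918 bases, longer than that of the members.

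Of 36 initiation factors 8 fell (22.2%) and 8 rose, with a median log2 fold change of -0.01. These shares were near those of all genes, of which 20.1% fell and 20.6% rose. Of 58 ribosome biogenesis genes 19 fell (32.8%) and 4 rose, with a median of -0.06. With the offsets 23 of the 58 fell and 7 rose, where 20.2% of all genes fell and 23.1% rose. *Bop1* and *Pes1*, partners in 60S maturation, were among the largest decreases, at -0.30 and -0.25 on the log2 scale without offsets and -0.25 and -0.24 with them, and were chosen after their values were seen. *Npm1*, a nucleolar chaperone, was not called, at -0.03. Mitochondrial ribosomal protein genes, which build a separate ribosome, had 35 lower (45.5%) and 1 higher of 77 tested, with a median of -0.11. With the offsets 18 of them were lower and 2 higher.

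Genes of TOR signalling and growth control moved in both directions, with 12 lower, 11 higher and 16 not called of 39, where 20.1% of all genes were lower and 20.6% higher. *Larp1*, whose protein binds the TOP tract, had 9584, 9528, 9496, 9029 and 9277 normalised counts in the control and 10961, 11432, 11198, 10480 and 10718 in the knockdown libraries. The lines were apart, with a log2 fold change of 0.22 ± 0.024 (SE, adjusted p = 2.8e-10, edgeR) and of 0.17 with the offsets. *Eif4ebp1*, a repressor of cap-dependent translation that TOR inactivates, had 7723, 7633, 7892, 7855 and 7545 against 6700, 7054, 6791, 7027 and 6615. It fell by 0.18 ± 0.025 (SE, adjusted p = 1.2e-07, edgeR), without overlap, and by 0.16 with the offsets. *Mtor* itself had a log2 fold change of -0.05 that was not called, and one of -0.12 that was called with the offsets. *Myc*, which drives ribosome production in many cells, was low, at 56.5 ± 5.78 and 51.7 ± 11.0 (SD, n = 5), and was not called. Its relatives *Mycn* and *Mycl*, named after their values were seen, both rose. *Mycn* went from 280 to 426 normalised counts, by 0.61 ± 0.067 on the log2 scale (SE, n = 5 per line, adjusted p = 3.6e-10, edgeR), and by 0.66 with the offsets. *Mycl* went from 883 to 1354, by 0.62 ± 0.039 (SE, n = 5 per line, adjusted p = 7.7e-17, edgeR), and by 0.65 with the offsets.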

How the data were processed

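Poly(A) RNA of 5 samples per AtT20 line was sequenced as stranded paired reads. According to the study's methods and the submitters' processing notes, the authors used FastQC, STAR on GRCm38 and featureCounts with Ensembl annotation 97, and deposited raw read counts per gene for each library. The strand setting and the handling of reads in overlapping genes are not given in the sources used here. Groups came from the sample titles. The last digit of the number in each title was taken as the replicate number, though the labels do not say what it marks. These numbers did not pair the samples.

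Symbols were matched for 53620 of 53801 identifiers. Genes were filtered with filterByExpr, scaled by TMM and tested with edgeR 4.0.16 (quasi-likelihood, R 4.3.3) over all 14336 genes kept, with Benjamini-Hochberg adjustment and a threshold of 0.01. Normalised counts are counts divided by the effective library size and multiplied by its mean. A value at 0 was given a limit of 3 counts. Transcript length and GC content came from GENCODE M21, an earlier annotation than the authors', and the offsets used natural splines with 5 degrees of freedom. DESeq2 1.42.0 was an alternative. The edgeR steps were tested on simulated data.

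Named members were the 6 largest decreases and increases among called members averaging 100 normalised counts or more, the 5 highest per kb, 9 genes fixed by name, and the l or x paralogues with their partners. The members, lists and tests were chosen with earlier results of these data known. Ribosomal protein genes on chromosome 18 were analysed, but no sequence of theirs is printed. One gene of the naming rule is not reported here.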

Additional observations from a re-analysis of the deposited data

Results flagged for a closer look

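In 5 of the 86 groups of 5 libraries examined for the named genes, 1 library lay far from the other 4 by Dixon's test, and chance alone gives about 1 in 20, or 4.3 groups. Both ribosomal protein genes concerned were high in non-targeting replicate 4, the control library in which the members as a group were also highest. There *Rpl11* had 7721 normalised counts, while the remaining control values were 7070 to 7222. *Rpl8* had 9401 there, with the remaining values at 8710 to 8879. *Eef1a1* was at 89556 in *Creb3l1* shRNA replicate 5, against 95885 to 97093 in the other 4 knockdown libraries. In *Creb3l1* shRNA replicate 2 *Npm1* was low, at 8159 against 9541 to 9861, and *Pabpc1* was high, at 21677 against 20522 to 20733.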

How the results depend on the processing

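The direction of the members' median held in every fit, and the combined offsets gave 26 calls (22 lower, 4 higher) of them, a median log2 fold change of -0.027 and 6207 calls over all genes. Of the alternatives chosen after seeing the data, offsets estimated outside the members gave 26 calls (22 lower, 4 higher) and a median of -0.027, length alone gave 19 calls (16 lower) and -0.033, and GC content alone gave 1 higher call. Just 1 member was called higher with DESeq2, without a filter, and when every library had to hold 10 counts or more. A threshold of 1.5-fold left 0 members and 1108 genes. Leaving out each library in turn gave 57 to 65 calls (55 to 64 lower, 1 to 2 higher) and medians of -0.14 to -0.12, with 5408 to 6026 calls over all genes.

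Of the lists, the ribosomal proteins with other names had 1 call when scaled by library totals, 0 with the offsets and 1 to 3 without a library. Initiation factors had 10 to 16, biogenesis genes 15 to 24 and pseudogenes 1 to 3 calls without a library, the lowest of the first being reached without control replicate 2 and of the second without control replicate 5. The pseudogenes had 1 call with DESeq2, 1 with the replicate block and 0 with the offsets. The mitochondrial list had 20 calls with the offsets. With replicate number as a block 68 members were called (66 lower), of 6013 genes, but same-numbered libraries did not deviate together (correlations of -0.06 to 0.04), and no member lost its call.

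With both offsets the log2 fold change turned positive for *Rpl11* (0.047), *Rpl19* (0.011), *Rplp2* (0.089), *Rps3a1* (0.043) and *Fau* (0.013), and to 0.046, 0.010, 0.089, 0.042 and 0.012 when estimated outside the members. With length alone it did so for *Rpl11* (0.029), *Rplp2* (0.061), *Rps6* (0.012), *Rps3a1* (0.071), *Rpl22l1* (0.044), *Eef1b2* (0.0036) and *Npm1* (0.031), and with GC content alone for *Mtor* (0.00099). Without a library, *Rpl10* ran from -0.0087 to 0.032 and *Npm1* from -0.045 to 0.022. The negative values of *Rpl10* came without control replicate 3 or knockdown replicate 2 or 4, and the positive one of *Npm1* without knockdown replicate 2. The cause of these reversals was not tested. Low counts limit *Rpl24*, *Rpl36al* and *Myc*.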

Other observations

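The members were spread over 19 chromosomes, and chromosome 7 held the most, 14 genes. Among these 14 were *Rpl18* and *Rps19*, with the largest decreases on the log2 scale of those called, and *Rplp2*, which was not called. Within the TOR and growth control list, the related genes *Castor1* and *Castor2* were the extremes of both directions and were chosen after their values were seen. *Castor1* fell by 1.56 on the log2 scale, from 17.6 ± 2.48 to 5.96 ± 3.84 normalised counts (SD, n = 5, adjusted p = 0.00019, edgeR), and *Castor2* rose by 0.69, from 1447 ± 29.9 to 2335 ± 108.7 (SD, n = 5, adjusted p = 8.2e-21, edgeR). Among the mitochondrial ribosomal protein genes, *Mrps18a* was the single increase, by 0.59, from 934 ± 82.2 to 1404 ± 45.6 normalised counts (SD, n = 5, adjusted p = 9.4e-13, edgeR). *Eif4ebp2* rose by 0.33 (adjusted p = 2.8e-14, edgeR), in the opposite direction to *Eif4ebp1*, and the difference between these genes was not tested.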
